A study of Mus musculus with 9 samples.

Results

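Enriched housing was compared with standard housing in the brains of APP/PS1 mice, a transgenic strain that makes human amyloid precursor protein and develops amyloid plaques. Of the 9 RNA sequencing libraries of the series, 6 entered this comparison, chosen by their group label: 3 from mice in an enriched environment and 3 from control mice in a standard environment. The other 3 came from mice exposed to stress and served as a second reference. All 9 mice share the APP/PS1 genotype, so no group lacks amyloid transgenes, and their promoter, the age and the sex are not stated in the sources used here. All 9 samples, enriched mice included, have standard rearing in the treatment field, so the housing rests on the group field and the titles. Each title carries its own animal code, and nothing else states that replicates came from separate animals. The p-values measure the spread between these samples. The code begins with D for enriched replicates 1 to 3 and control replicates 2 and 3, and with C for control replicate 1 and the 3 stress libraries. The sources used here do not explain the letter. Animals were perfused and, per the series' design text, RNA came from the brain stem pooled with the anterior part of the brain.

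An enriched environment gives rodents company, space, objects and often a running wheel, and it is a standard model of sensory, motor and social stimulation. Neurons respond to stimulation within minutes by transcribing immediate early genes such as Fos and Egr1, whose products switch on later effector genes. In rodents, enrichment has been linked with neurotrophins, synaptic proteins, adult-born olfactory and hippocampal neurons and microglial state, so the genes were described by those families and by markers of the cell types and regions that the tissue could hold.

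Libraries held 15851833 to 17213008 estimated counts, and 14694 of 18450 genes had enough reads to be tested. Markers of neurons, astrocytes, oligodendrocytes and microglia were abundant in all 9 libraries, as in other brain samples. Snap25, a synaptic vesicle fusion protein, ranged from 1638 to 2305 CPM, counts scaled to library size, over the 6 libraries. The Y-linked genes Ddx3y and Uty had 0 to 2 reads in every library. The libraries stood apart in 2 ways that cut across or along the groups. Enriched replicates 1 and 3 held transcripts of olfactory epithelium and almost none of choroid plexus, and control replicates 1 and 2 were shifted towards short transcripts and towards brain stem genes. Values for both are given beside the results they move with. In pooled tissue, fewer cells of a type and less RNA per cell cannot be told apart.

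Most immediate early genes, among them Fosb, Egr2 and Egr1, were higher in the enriched libraries, with a median log2 fold change of 0.56 over 23 genes. Samd9l, an interferon-inducible gene, and the NMDA receptor subunit Grin2b were higher in all 3 enriched libraries than in any control. Of single genes, Pcolce, Rdh5 and Adh1, which act on procollagen and retinol, were lower in every enriched library than in any control. The groups did not overlap for 26.1% of all genes tested, and no gene passed the adjusted main test below. For Samd9l, Grin2b and Pcolce the stress libraries lay nearer the enriched than the control libraries. All 78 ribosomal protein genes tested were lower, by a median of -0.40 that became -0.09 once a trend with transcript length was removed.

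No single gene passed the test between enriched and control mice (0 of 14694 in the edgeR quasi-likelihood test, Benjamini-Hochberg adjusted, threshold 0.05, smallest adjusted p = 0.180). Before adjustment, 2994 genes were at a p under 0.05 (20.4%), of which 1459 (9.93%) were higher and 1535 (10.4%) lower in enriched mice. DESeq2 placed 5 genes past the same adjusted threshold and limma-voom placed 0. Every enriched library exceeded every control for 1834 genes (12.5%) and below them for 1997 genes (13.6%). A difference of at least 2-fold was fitted for 343 genes, 199 higher and 144 lower. The median standard deviation of log2 CPM over genes was 0.213 in the controls and 0.133 in the enriched mice, so the controls varied more among themselves. Without control replicate 3 the same test called 1586 genes, 894 higher and 692 lower, whereas it called 0 without control replicate 1 and 0 without control replicate 2. Without enriched replicate 2 it called 33, and 5 of these were also among the 1586.

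The 12 higher genes with the smallest p among those of at least 1 CPM and with no overlap between the groups ranged upward from 0.57 in log2 fold change, to 2.76 over the 10 with more than 3 reads in each control library (adjusted p = 0.180 to 0.236 in the edgeR quasi-likelihood test, Benjamini-Hochberg adjusted). Samd9l (gene 209086, chromosome 6, 3372257 to 3399571 on GRCm38.p6), an interferon-inducible antiviral gene, led them. It was at 6.95, 5.89 and 6.21 CPM in enriched replicates 1 to 3 and at 1.99, 2.54 and 1.997 CPM in control replicates 1 to 3. The lowest enriched library lay more than 2-fold above the highest control. The log2 fold change was 1.54 ± 0.19 (SE), and it was 1.34 with the length trend described below removed. Stress libraries were at 6.01, 7.32 and 5.62 CPM, and the enriched minus stress log2 difference was 0.01 ± 0.18 (SE). The sum covers 1 of its 2 annotated coding transcripts.

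Fyb, an adaptor protein of T cells and other blood-derived cells, was at 7.85, 6.90 and 7.59 CPM in the enriched and 4.52, 3.50 and 3.45 CPM in the control libraries, again without overlap. Its log2 fold change was 0.96 ± 0.19 (SE). Slc10a7, a membrane protein of the bile acid transporter family, was at 6.41, 5.95 and 5.90 against 1.87, 2.35 and 3.09 CPM. The 3 enriched values were nearly equal while control replicate 3 was the highest control. Col24a1, a fibrillar collagen, was at 4.13, 3.63 and 6.71 against 0.724, 0.725 and 0.666 CPM, with a log2 fold change of 2.76 ± 0.58 (SE), and the stress libraries were at 4.43, 7.14 and 1.16 CPM. Every enriched library and stress replicates 1 and 2 were high for it, and stress replicate 3 lay near the controls. The mitochondrial carrier Slc25a35 was at 5.93, 5.17 and 6.27 against 2.83, 3.14 and 2.96 CPM, and the monocarboxylate transporter family member Slc16a14 at 4.01, 3.09 and 3.70 against 1.69, 1.75 and 1.88 CPM. For Slc16a14 the lowest enriched library was above the highest of the 6 others, since stress libraries were at 2.004, 2.34 and 2.38 CPM. Its log2 fold change was 1.02 ± 0.21 (SE). Tmem132b, a neuronal membrane protein, and Pdzd2, a protein with several PDZ domains, were the members of larger abundance. Tmem132b was at 59.004, 61.4 and 73.2 against 44.02, 38.9 and 47.7 CPM and Pdzd2 at 55.1, 51.01 and 54.4 against 32.8, 31.04 and 39.02 CPM. Their log2 fold changes of 0.57 ± 0.11 and 0.64 ± 0.14 (SE) were 0.27 and 0.31 with the length trend removed, and both are among the 5 genes that DESeq2 called.

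The early response genes Fosb and Apold1 were also among the 12 and are described with the immediate early genes. The remaining 2 of the 12, Clca3a1 and Bpifa1, are genes of mucous epithelia, a chloride channel regulator and a secreted airway protein. Bpifa1 had 24, 12 and 59 reads in the enriched and 2, 1 and 2 reads in the control libraries. Clca3a1 had 77, 15 and 105 against 2, 1 and 3 reads. The stress libraries had 10, 25 and 30 reads of Clca3a1, in part above enriched replicate 2, and 3, 1 and 1 of Bpifa1. With 1 to 3 reads per control library, no fold is given. Both were lowest, among the enriched libraries, in replicate 2.

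**Figure D1:**
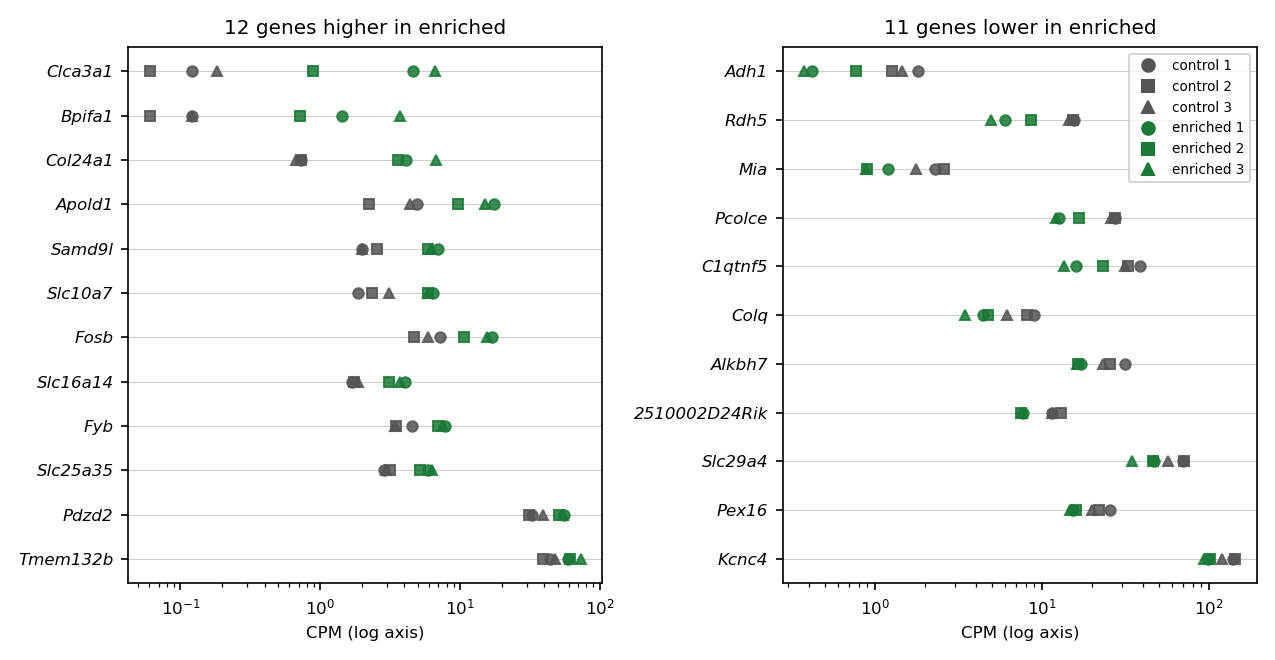
CPM of the 12 higher (left) and 11 of the 12 lower (right) genes with the smallest p among those of at least 1 CPM without overlap, in each of the 3 enriched (green) and 3 control (grey) libraries, on a log axis with marker shape giving the replicate. The enriched points lie to one side of the control points for every gene by the way the genes were chosen, and Clca3a1 and Bpifa1 show the widest spread among enriched libraries.

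The 12 lower genes ranged from -1.51 to -0.46 in log2 fold change, each at adjusted p = 0.236 in the edgeR quasi-likelihood test, Benjamini-Hochberg adjusted. Pcolce (chromosome 5, 137605105 to 137611522 on GRCm38.p6), which enhances the trimming of procollagens, was at 12.6, 16.6 and 12.2 CPM in enriched and 27.3, 27.4 and 26.02 CPM in control libraries. The controls agreed closely, and enriched replicate 2 was the nearest to them. The log2 fold change was -0.96 ± 0.15 (SE) and -0.79 with the length trend removed, and the stress libraries were at 13.8, 17.9 and 15.8 CPM. Rdh5 and Adh1 both act on retinol. Rdh5, a retinol dehydrogenase, was at 5.99, 8.56 and 4.95 against 15.6, 15.3 and 14.5 CPM. Adh1, an alcohol dehydrogenase that oxidises retinol, was at 0.419, 0.773 and 0.376 against 1.81, 1.27 and 1.45 CPM. In both genes enriched replicate 2 was the highest enriched library and still under every control. That library also held the choroid plexus transcript Ttr (transthyretin) at 2023 CPM, against 24.02 and 11.04 CPM in enriched replicates 1 and 3. Ttr was at 3121, 2939 and 3566 CPM in the controls and at 330, 1427 and 1393 CPM in the stress libraries. The part of choroid plexus in these 3 genes was not tested. The list of meningeal fibroblast and retinoid genes as a whole had a median log2 fold change of 0.03, with 14 of 26 tested members higher, against 0.015 over all genes tested.

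C1qtnf5, a secreted protein with a C1q domain, was at 15.99, 23.2 and 13.6 against 38.8, 32.6 and 31.2 CPM. Slc29a4, a transporter that takes up monoamines, was at 47.02, 45.96 and 34.8 against 69.8, 70.5 and 56.6 CPM, with a log2 fold change of -0.62 ± 0.13 (SE). Colq, which anchors acetylcholinesterase, was at 4.43, 4.76 and 3.45 against 8.93, 8.15 and 6.17 CPM. For Slc29a4 the stress libraries lay with the enriched ones, at 46.03, 47.3 and 45.4 CPM, and for Colq they were at 5.95, 6.09 and 6.17 CPM, at or just under the lowest control. Kcnc4, a fast potassium channel subunit, was the most abundant of the 12 at 98.8, 101 and 93.5 against 139, 144 and 120.2 CPM. Pex16, a peroxisome assembly protein, was at 15.3, 15.9 and 14.8 against 25.5, 21.9 and 19.97 CPM, and the mitochondrial protein Alkbh7 at 17.2, 16.4 and 16.3 against 31.6, 25.4 and 23.2 CPM. Pex16 and Alkbh7 had log2 fold changes of -0.55 ± 0.12 and -0.69 ± 0.15 (SE), which were -0.33 and -0.38 with the length trend removed. Mia, a small secreted protein first described in cartilage and melanoma, and 2510002D24Rik were also among the 12, at log2 fold changes of -1.16 ± 0.27 and -0.66 ± 0.15 (SE). With the length trend removed, 11 of the 12 higher genes and all 12 lower genes still had no overlap. All 24 kept their sign with 2 regional components as covariates. They also kept it against control replicate 3 alone and in enriched replicate 2 alone, which the choice of genes without overlap all but fixed in advance. These genes were picked for the main contrast, and the refits share its libraries.

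Immediate early genes encode mostly transcription factors that neurons switch on with activity. Of 23 tested members, 20 were higher in enriched mice, and the median log2 fold change was 0.56, against 0.015 over all genes tested. At an unadjusted p under 0.05, 10 of the 23 were higher (background 9.93%) and 0 lower. All 3 enriched values lay above all 3 controls for 8 genes (background 12.5%), and for 1 gene, Ier2, they lay below (background 13.6%). To show the control regions that this group is known for, the upstream windows of 3 of the members with the smallest p are printed from RefSeq (GRCm38.p6), each of 250 bases 5′ to 3′ up to the annotated start, with the motifs found by letter search in capitals.
Egr2, chr10:67537619-67537868, plus strand: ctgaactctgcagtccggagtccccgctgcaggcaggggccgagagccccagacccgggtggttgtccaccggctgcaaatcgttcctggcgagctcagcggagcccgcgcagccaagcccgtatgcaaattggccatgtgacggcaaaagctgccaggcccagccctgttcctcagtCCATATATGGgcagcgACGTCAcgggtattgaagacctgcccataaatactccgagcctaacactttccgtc
Fosb, chr7:19310046-19310295, minus strand: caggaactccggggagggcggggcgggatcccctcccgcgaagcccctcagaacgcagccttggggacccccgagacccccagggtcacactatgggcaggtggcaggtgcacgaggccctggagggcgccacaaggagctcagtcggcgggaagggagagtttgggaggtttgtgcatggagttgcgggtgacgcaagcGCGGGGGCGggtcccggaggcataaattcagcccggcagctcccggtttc
Fosl2, chr5:32136222-32136471, plus strand: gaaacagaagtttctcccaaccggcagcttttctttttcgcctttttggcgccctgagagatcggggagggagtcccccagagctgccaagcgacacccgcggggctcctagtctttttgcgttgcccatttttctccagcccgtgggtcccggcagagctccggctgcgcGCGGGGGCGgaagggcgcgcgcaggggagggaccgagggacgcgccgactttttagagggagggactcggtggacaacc
The capitals in the Egr2 window mark a CArG box, the element bound by serum response factor, followed by ACGTCA, the core of the cyclic AMP response element. Egr2 has 5 annotated starts with a window. Of these, 3 overlapping windows hold both motifs, and the most upstream of the 3 is shown. The capitals in the Fosb and Fosl2 windows mark GCGGGGGCG, the element bound by Egr proteins. Both strands were searched over the 250 upstream bases, for motifs chosen after the windows had been seen. ACGTCA or its reverse complement occurred in 9 of 19 immediate early genes with a window (Fos, Egr2, Egr4, Npas4, Nr4a3, Dusp1, Btg2, Atf3 and Per1) and in 10.8% of the 11668 tested genes with one. GCGGGGGCG occurred in 4 of the 19 (Fosb, Fosl2, Nr4a1 and Klf4) and in 5.50% of the 11668, and the CArG box in 1 of the 19 and 1.43%. A match describes the letters only.

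Egr2 was at 7.13, 3.75 and 8.09 CPM in enriched replicates 1 to 3 and 1.81, 0.966 and 1.75 CPM in control replicates 1 to 3. Every enriched library was more than 2-fold above the highest control. The log2 fold change was 2.06 ± 0.46 (SE), and the stress libraries were at 1.15, 3.75 and 3.24 CPM. Fosb, a partner of Jun proteins in the AP-1 factor, was at 16.95, 10.7 and 15.6 against 7.18, 4.65 and 5.93 CPM, and Fosl2, another AP-1 subunit, at 31.4, 18.8 and 29.2 against 13.9, 6.34 and 12.3 CPM. In both, enriched replicate 2 was the lowest enriched library and control replicate 2 the lowest control. The log2 fold changes were 1.28 ± 0.26 and 1.29 ± 0.28 (SE). Egr1 (early growth response 1) was at 178, 182 and 228 against 108, 66.96 and 109 CPM, with a log2 fold change of 1.05 ± 0.27 (SE), and here enriched replicate 3 was highest. Apold1, an early response gene of brain endothelium that was not in the list, was at 17.4, 9.63 and 15.2 against 4.88, 2.23 and 4.36 CPM, a log2 fold change of 1.88 ± 0.40 (SE).

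Fos was at 38.8, 38.3 and 33.4 against 21.05, 19.1 and 23.3 CPM, and Egr3, a relative of Egr1, at 74.4, 67.5 and 87.4 against 44.6, 41.7 and 47.2 CPM. Neither overlapped. Nr4a1, a nuclear receptor without a known hormone, was at 69.97, 63.9 and 79.1 against 49.6, 21.4 and 39.1 CPM, with control replicate 2 the lowest library. Npas4, which is switched on by calcium entry into neurons, was at 14.6, 8.86 and 17.3 against 4.46, 2.23 and 6.84 CPM. Arc, which acts at synapses on glutamate receptor uptake, was at 139.7, 98.5 and 138 against 108, 55.9 and 86.5 CPM, where control replicate 1 lay above enriched replicate 2. Members with little difference included Jun at 78.3, 75.5 and 78.02 against 67.8, 73.7 and 79.3 CPM and Per1 at 84.5, 76.2 and 88.5 against 81.7, 54.8 and 87.6 CPM, and their groups overlapped. The members at the other end were Jund at 115, 101 and 99.5 against 168, 142 and 104 CPM and Ier2 at 15.6, 17.8 and 14.9 against 25.1, 20.2 and 18.5 CPM. Fosl1 was too low to be tested, with 0 to 3 reads.

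**Figure D2:**
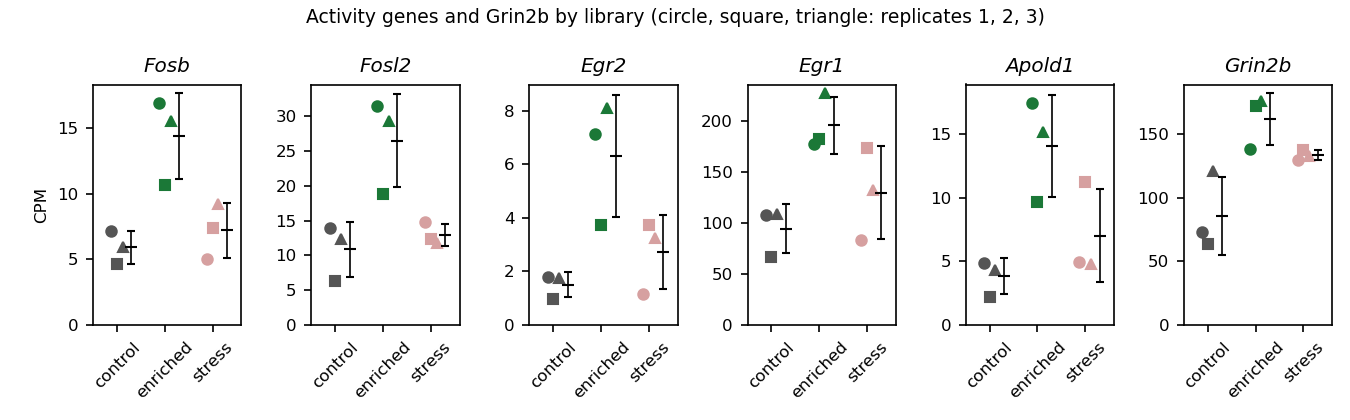
CPM of Fosb, Fosl2, Egr2, Egr1, Apold1 and Grin2b in each of the 3 control (grey), 3 enriched (green) and 3 stress (pink) libraries, with black bars for the mean ± SD of a group. For all 6 genes the enriched points lie above every control point, and the stress points lie among or between them.

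The mean log2 CPM of the 23 genes was at 0.58, 0.48 and 0.75 in enriched replicates 1 to 3, at 0.20, -0.33 and 0.14 in control replicates 1 to 3 and at -0.27, 0.35 and 0.19 in stress replicates 1 to 3, relative to the control mean. The 3 enriched libraries were above all 6 others. The median log2 fold change of the list was 0.57 with the length trend removed, 0.46 with 1 and 0.41 with 2 regional components as covariates. It was 0.56 with enriched replicate 2 as the only enriched library and 0.53 with control replicate 3 as the only control. Leaving out 1 library at a time gave 0.37 to 0.71. Genes of the olfactory bulb, a region whose interneurons are renewed in adult life, were at 1.32, 0.62 and 1.0 in the enriched and 0.25, -0.91 and 0.66 in the control libraries on the same scale, and control replicate 2 was lowest for both lists. Their part in the result was not tested. Against the stress mice, the median of the immediate early list was 0.51.

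Activity-induced effector genes, which follow the immediate early genes, had a smaller median of 0.19, with 14 of 20 tested members higher and 6 of them at an unadjusted p under 0.05 (background 9.93%). Pcsk1, a convertase that cuts prohormones, was at 36.8, 29.1 and 35.4 against 19.9, 19.02 and 26.02 CPM. Ptgs2 (cyclooxygenase 2) was at 6.41, 7.67 and 9.16 against 4.16, 2.78 and 5.38 CPM. Both were without overlap, with log2 fold changes of 0.64 ± 0.16 and 0.91 ± 0.26 (SE). Sik1, a kinase induced by cyclic AMP, was at 19.3, 14.2 and 17.4 against 11.6, 11.1 and 12.04 CPM. The enriched libraries were above all controls and above the stress libraries, which were at 9.29, 12.98 and 7.82 CPM.

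Neurotrophins and their receptors were higher for 9 of 17 tested members, with a median of 0.077 that turned to -0.091 with the length trend removed and -0.11 with enriched replicate 2 alone. Bdnf, a neurotrophin that neurons make and release with activity, was at 26.8, 16.7 and 22.6 against 15.7, 26.8 and 15.7 CPM. The groups overlapped, with control replicate 2 level with enriched replicate 1, and the log2 fold change was 0.18 ± 0.23 (SE). Ntrk2, its receptor, was at 576, 578 and 601 against 389, 419.9 and 514 CPM, a log2 fold change of 0.41 ± 0.13 (SE) that was 0.11 with the length trend removed. Ptn (pleiotrophin), a heparin-binding growth factor, was at 314, 246 and 370.02 against 213, 218 and 224 CPM, and its relative Mdk (midkine) at 28.8, 28.3 and 24.1 against 45.95, 38.7 and 37.03 CPM. The relatives thus lay in opposite directions, each without overlap, at 0.51 ± 0.15 and -0.58 ± 0.15 (SE). Igf1, a growth factor of neurons and microglia, was at 18.3, 11.1 and 15.7 against 4.64, 3.44 and 10.3 CPM, without overlap and with a log2 fold change of 1.29 ± 0.38 (SE). With 2 regional components as covariates it was 0.53. Its binding proteins Igfbp2 and Igfbp5 were at 69.1, 78.4 and 51.99 against 133, 97.4 and 102 CPM and at 289.7, 259 and 272 against 183, 199.9 and 260.4 CPM, the first lower in every enriched library and the second overlapping.

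Long and short transcripts differed as classes between the groups. Genes whose longest coding transcript was under 1 kb had a median log2 fold change of -0.40 (653 genes), and the median went up through each of 7 length classes to 0.32 at 8 kb and over (863 genes). Of the genes of 8 kb and over, 89.5% were higher in enriched mice, against 11.03% under 1 kb. The slope of log2 CPM per doubling of length, relative to the mean over 9 libraries, was -0.248, -0.088 and 0.027 in control replicates 1 to 3. In enriched replicates 1 to 3 it was 0.038, 0.105 and 0.126, and in stress replicates 1 to 3 it was 0.048, 0.075 and -0.084. Control replicate 3 lay close to enriched replicate 1, and control replicates 1 and 2 were the lowest of these 6 libraries. Removing the trend from each library took the genes with all 3 enriched values above all 3 controls from 12.5% to 7.28% and left those below at 13.7%, and 876 and 1315 genes were in both counts. The cause of the length trend was not tested.

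**Figure D3:**
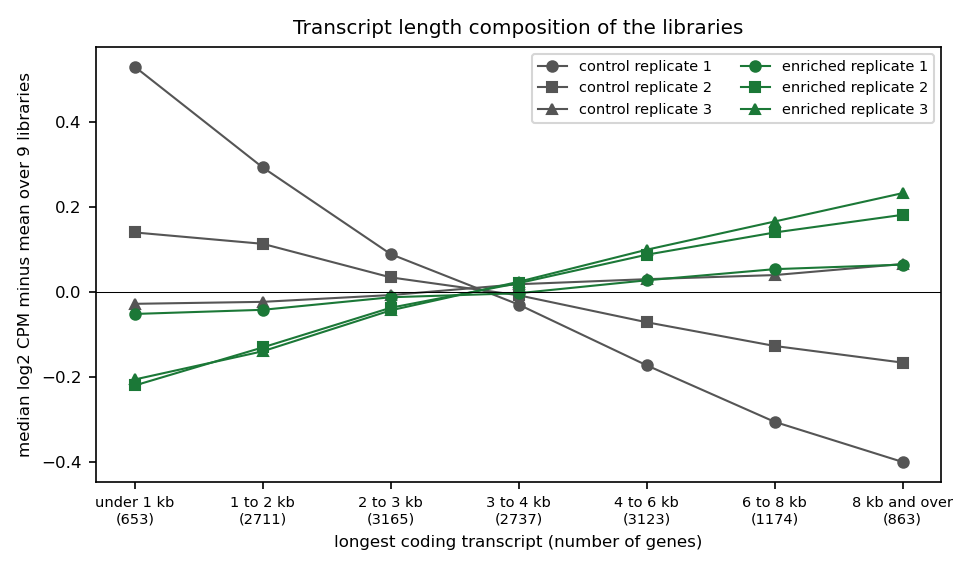
Median over genes of log2 CPM minus the mean of 9 libraries (vertical axis), for 7 classes of longest coding transcript (horizontal axis, number of genes in brackets), with 1 line for each of the 3 control (grey) and 3 enriched (green) libraries. Control replicates 1 and 2 start above 0 for short transcripts and end at -0.40 and -0.17 for the longest, while control replicate 3 runs with the enriched libraries.

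Genes of the ribosome and of mitochondrial respiration, which have short transcripts, were lower throughout. All 78 tested cytosolic ribosomal protein genes and all 69 nuclear subunits of oxidative phosphorylation had a log2 fold change under 0, with medians of -0.40 and -0.43. All 3 enriched values lay below all 3 controls for 45 of the 78 and 23 of the 69 (background 13.6%). With the length trend removed the medians were -0.09 and -0.13 and the counts 14 and 10 (background 13.7%). Rpl24, a protein of the large ribosomal subunit, was at 272, 239 and 234 against 423, 327 and 299 CPM, and its log2 fold change of -0.50 ± 0.16 (SE) was -0.14 with the trend removed. Ndufa6, a subunit of complex I, was at 90.4, 77.1 and 71.2 against 147, 124 and 90.8 CPM, and Cox7c, of complex IV, at 222, 215 and 217 against 331, 275 and 251 CPM. In both, control replicate 1 was highest and control replicate 3 nearest the enriched libraries. Their log2 fold changes of -0.60 ± 0.17 and -0.39 ± 0.11 (SE) were -0.22 and -0.042 with the trend removed. Against control replicate 3 alone the 2 medians were -0.18 and -0.099.

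Proteasome subunits were lower for 28 of 30 tested genes, with a median of -0.31 and of -0.15 with the trend removed, and 19 of the 30 lay below all controls before (background 13.6%) and 12 after (background 13.7%). Psmb5, a catalytic subunit, was at 65.9, 64.9 and 66.4 against 115, 90.8 and 77.4 CPM. Chaperonin and heat shock genes had a median of -0.13 that was -0.14 with the trend removed. Of these, 9 of 27 tested genes lay below all controls before and 11 after, against the same backgrounds. Cct7, a subunit of the ring that folds actin and tubulin, was at 170.2, 174 and 176 against 251, 231 and 195 CPM. Its log2 fold change of -0.38 ± 0.10 (SE) was -0.32 with the trend removed.

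At the long end, chromatin regulators were higher for 32 of 35 tested genes, with a median of 0.34, and 12 of the 35 lay above all controls (background 12.5%). With the length trend removed the median was 0.03 and 2 of the 35 lay above all controls (background 7.28%). Tet3, which oxidises methylated cytosine, was at 42.8, 45.2 and 44.8 against 23.6, 28.1 and 40.8 CPM. The groups did not overlap. Neurexins, neuroligins and other synaptic adhesion genes were higher for 31 of 32 tested genes, and their median of 0.27 was 0.0024 with the trend removed. Nlgn3, a neuroligin, was at 44.9, 48.6 and 47.1 against 31.3, 35.9 and 40.4 CPM, and Slitrk3, an adhesion protein of inhibitory synapses, at 28.2, 35.1 and 32.2 against 17.9, 18.2 and 25.8 CPM. Their log2 fold changes of 0.39 ± 0.12 and 0.63 ± 0.19 (SE) were 0.091 and 0.48 with the trend removed.

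Grin2b and several GABA receptor and potassium channel genes were higher with and without the length trend. Grin2b, the NMDA receptor subunit that predominates in the young forebrain, was at 138, 172 and 176 CPM in the enriched and 72.9, 63.3 and 121 CPM in the control libraries. Control replicate 3 stood nearest the enriched libraries. The log2 fold change was 0.92 ± 0.21 (SE), 0.56 with the length trend removed and 0.60 with 2 regional components, and DESeq2 called it. Of the 7 NMDA receptor subunits, 4 were higher, with a median of 0.059 that turned to -0.16 with the length trend removed and -0.12 with enriched replicate 2 alone. Grin2c, typical of cerebellar granule cells, was at 175, 176 and 174 against 216, 244 and 200.02 CPM. GABA receptor subunits were higher for 14 of 17 tested genes, with a median of 0.37 and of 0.21 with the trend removed. Gabra5, a subunit of extrasynaptic receptors, was at 73.6, 47.7 and 67.8 against 30.8, 23.7 and 41.1 CPM, a log2 fold change of 0.98 ± 0.30 (SE) that was 1.01 with the trend removed and 0.48 with 2 regional components. The groups had no overlap, and control replicate 3 was the highest control.

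Voltage-gated potassium channels had a median of 0.42 (18 of 25 higher) and of 0.20 with the length trend removed. All 3 enriched values were above all controls for 8 of the 25 before (background 12.5%) and 7 after (background 7.28%). Kcna4, an inactivating channel of axons, was at 23.7, 17.004 and 21.7 against 10.1, 8.33 and 12.7 CPM, at 1.0 ± 0.26 (SE). Sodium channels lay in both directions. Scn3a, abundant in developing brain, was at 26.8, 26.3 and 31.3 against 9.47, 9.36 and 18.3 CPM, whereas Scn2b, an auxiliary subunit, was at 3.23, 4.16 and 4.39 against 10.6, 8.997 and 7.08 CPM. Scn2b was below all controls in each enriched library, and in the stress mice it was low in replicates 1 and 2 and high in replicate 3.

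Postsynaptic scaffold genes were higher for 18 of 22 tested members, with medians of 0.31 and, with the length trend removed, 0.095. Homer2, which links glutamate receptors to calcium stores, was at 54.5, 42.99 and 65.6 against 24.2, 23.3 and 40.4 CPM. Dlgap2, a partner of PSD-95, was at 49.8, 46.7 and 55.001 against 27.9, 21.4 and 41.2 CPM. Both had no overlap, with log2 fold changes of 0.89 ± 0.25 and 0.74 ± 0.20 (SE) that were 0.58 and 0.60 with the trend removed. Presynaptic vesicle genes were closer to 0, at a median of 0.12 and -0.012 with the trend removed. Syn3, a synapsin, was at 36.3, 33.3 and 31.3 against 21.7, 20.2 and 22.5 CPM, a log2 fold change of 0.65 ± 0.20 (SE).

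Families were also defined by the letters of their symbols alone, without a preset list. Of 175 stems with at least 10 tested members, Ndufa, Ndufb, Cox, Timm, Rps and Rpl had the lowest medians, from -0.48 to -0.38. Timm genes encode the inner membrane import machinery of mitochondria, and Timm50 was at 37.98, 34.8 and 33.2 against 59.6, 48.004 and 40.4 CPM. The Rps stem also takes in ribosomal S6 kinases, of which Rps6ka2 lay the other way at 69.7, 74.3 and 76.3 against 62.4, 56.8 and 62.3 CPM. The highest medians belonged to Pcdh, Ifi, Pcdhb, Pcdha, Cacna and Klf. All 11 Pcdh genes, the non-clustered protocadherins, were higher, with a median of 0.65 that was 0.33 with the length trend removed, and 7 of the 11 lay above all controls (background 12.5%). Pcdh7 was at 93.8, 85.6 and 95.3 against 58.9, 56.7 and 60.9 CPM and Pcdh17 at 66.8, 60.6 and 77.01 against 40.5, 46.6 and 42.7 CPM. Neither overlapped, and for both stress replicate 3 lay in the range of the controls or below it, at 56.9 and 41.96 CPM.

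All 20 Pcdhb genes were higher too, with a median of 0.45 and of 0.38 with the trend removed. Pcdhb17, one of them, was at 13.1, 14.03 and 14.8 against 7.06, 9.66 and 12.2 CPM. Clustered protocadherins give neurons combinations of adhesion proteins by which they tell their own branches from others, and members of a cluster lie side by side, have similar sequences and share reads by estimation, so they are not independent. Over the alpha, beta and gamma clusters, 44 of 49 tested genes were higher, and 14 of the 49 lay above all controls before (background 12.5%) and 9 after (background 7.28%) the length trend was removed. The median was 0.048 against control replicate 3 alone. Krüppel-like factors were higher for 13 of 14 members. Klf12 was at 45.5, 56.1 and 55.4 against 23.4, 29.8 and 41.6 CPM and Klf3 at 19.9, 21.9 and 22.8 against 9.95, 13.6 and 18.2 CPM.

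**Figure D4:**
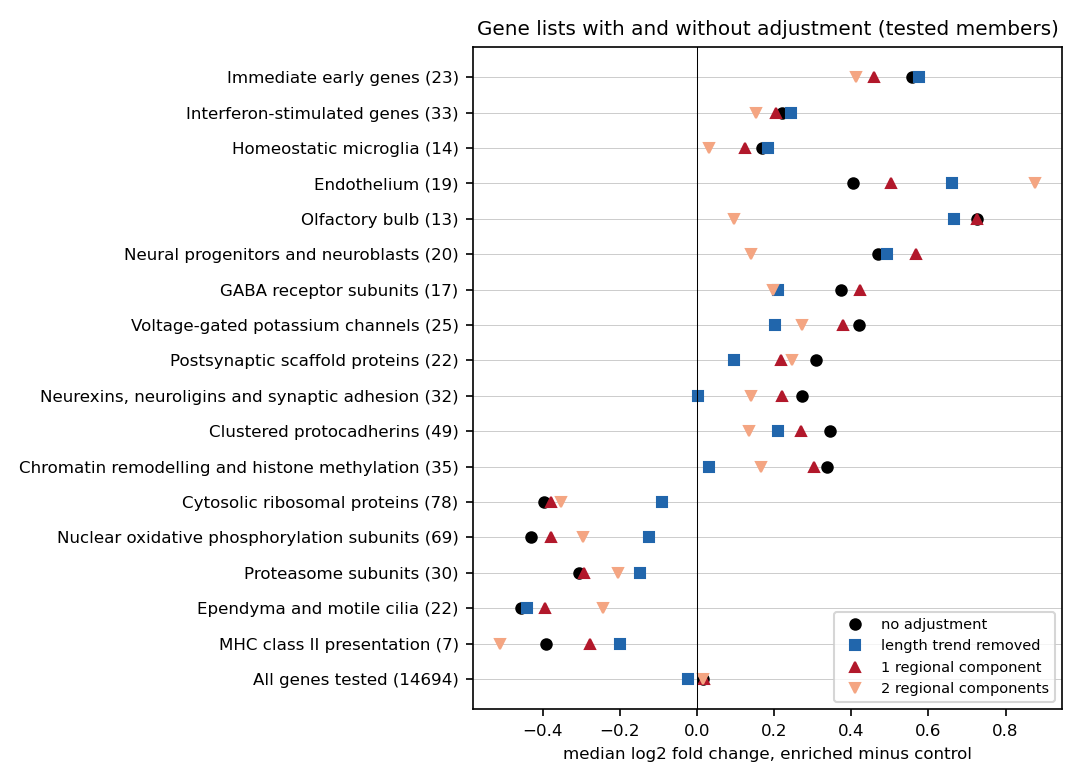
Median log2 fold change, enriched minus control, of 17 gene lists and of all genes tested (number of tested members in brackets), without adjustment (black), with the length trend removed (blue) and with 1 or 2 regional components as covariates (dark and light red). Immediate early genes stay at 0.41 or more, whereas ribosomal, respiratory, chromatin and synaptic adhesion genes lie between -0.13 and 0.03 with the length trend removed.

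Interferon-stimulated genes were higher for 23 of 33 tested members, with a median of 0.22, or 0.24 with the length trend removed, and 9 of the 33 lay above all controls (background 12.5%) and 2 below (background 13.6%). Parp14, a mono-ADP-ribosyl transferase, was at 5.33, 6.42 and 5.33 against 4.10, 2.72 and 3.75 CPM, and Gbp7, a guanylate-binding protein, at 4.43, 4.99 and 5.27 against 2.77, 1.87 and 3.45 CPM. The letters GAAA, NN and GAAA in a row, the core of the interferon-stimulated response element, occurred on either strand of the 250 upstream bases in 12 of 26 of these genes with a window and in 3.13% of the 11668 tested genes with one. The gene Samd9l, first by p over all genes, was not among these 12. Not all interferon genes lay in 1 direction: Ifi27 was at 25.7, 28.004 and 26.8 against 40.8, 35.6 and 30.6 CPM, below every control. Relative to the control mean, the list stood at 0.23, 0.27 and 0.26 in the enriched, 0.20, -0.17 and -0.03 in the control and 0.33, 0.15 and 0.44 in the stress libraries.

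MHC class I genes lay in both directions, with a median of -0.097 that turned to 0.10 with the length trend removed. B2m, the light chain, was at 160.2, 179.97 and 197 against 156, 138 and 154 CPM and the heavy chain H2-D1 at 121, 127 and 119 against 160.5, 148 and 147 CPM. Tap2, a subunit of the peptide transporter, was at 17.9, 20.8 and 14.4 against 26.4, 22.3 and 23.3 CPM. All 7 MHC class II genes had log2 fold changes under 0, with a median of -0.39, but none was below all controls or at an unadjusted p under 0.05. Cd74, the invariant chain, was at 17.3, 21.3 and 15.2 against 26.1, 19.4 and 24.99 CPM, and the groups overlapped, with control replicate 2 low. H2-Aa, a class II alpha chain, also overlapped, at 8.03, 9.39 and 7.46 against 13.4, 8.09 and 12.7 CPM. MHC genes are near-identical in parts, and reads shared between them are estimated.

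T cell genes were too scarce to compare. Of 22 listed genes, 5 had enough reads to be tested, and these include Thy1, which neurons express. Cd8a, the alpha chain of the CD8 co-receptor, had 2, 2 and 5 reads in the enriched and 4, 5 and 3 reads in the control libraries, and Cd8b1 had 0, 0 and 1 against 3, 3 and 3. Cd3e, shared by all T cells, had 5, 1 and 1 against 3, 3 and 3 reads. A difference in T cells was not detectable at this depth.

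Microglial genes of the resting state were higher for 12 of 14 tested members, with a median of 0.17 and of 0.18 with the length trend removed. It was 0.032 with 2 regional components and 0.03 with enriched replicate 2 alone. P2ry12, a purinergic receptor by which microglia sense damage, was at 24.9, 26.4 and 35.5 against 10.7, 14.7 and 24.6 CPM. Its groups did not overlap, but control replicate 3 lay just under enriched replicate 1, and the log2 fold change was 0.80 ± 0.29 (SE). Tmem119 was at 23.1, 21.5 and 26.7 against 26.5, 22.3 and 22.1 CPM and Csf1r, the receptor on which microglia depend, at 116, 104 and 133 against 97.2, 94.02 and 108 CPM. Both overlapped between the groups. Genes of plaque-associated microglia were higher for 11 of 20 members, with a median of 0.049 that turned to -0.033 with 2 regional components and -0.072 with enriched replicate 2 alone. Itgax (CD11c), typical of microglia at plaques, was at 3.77, 4.28 and 8.09 against 1.99, 2.05 and 3.63 CPM, with the highest value in enriched replicate 3, and Cd63, a lysosomal membrane protein, at 95.6, 79.7 and 79.4 against 134, 107 and 102 CPM. The log2 fold changes were 1.07 ± 0.42 and -0.43 ± 0.13 (SE).

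For the amyloid pathway, App was at 2762, 3233 and 3121 CPM in enriched and 2362, 2807 and 2984 CPM in control libraries. How reads of the human transgene were assigned to the mouse gene is not stated in the labels. The log2 fold change was 0.16 ± 0.11 (SE). Of 24 tested genes of secretases and amyloid clearance, 14 were higher, with a median of 0.048 that turned to -0.061 with the length trend removed. Clu (clusterin), an apolipoprotein that binds amyloid, was at 935, 1049.5 and 971 against 1229, 1175 and 1128 CPM, and Abca1, which loads lipid on apolipoproteins, at 67.1, 55.2 and 76.2 against 25.2, 35.99 and 60.6 CPM. Clu was below all controls and Abca1 overlapped them.

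Astrocyte identity genes were higher for 9 and lower for 6 of 15. Slc1a2, the main glutamate transporter, was at 1234, 1315 and 1512 against 716, 998 and 1121 CPM, whereas Aldh1l1, a folate enzyme, was at 112, 108 and 101 against 145, 143 and 119 CPM and S100b, a calcium-binding protein, at 417, 356 and 362 against 584, 592 and 419 CPM. These genes of 1 cell type had no overlap in opposite directions. With the length trend removed their log2 fold changes were 0.19, -0.47 and -0.28. Myelin genes were lower for 15 of 17, with a median of -0.30, yet none was below all controls, and control replicate 3 was the lowest control for the list. Trf (transferrin) was at 538, 415 and 413 against 820, 864 and 419 CPM. The median became 0.088 with 1 regional component and 0.35 against control replicate 3 alone, so its sign turned.

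Endothelial genes were higher for 18 of 19 tested members, with a median of 0.40, of 0.66 with the length trend removed and of 0.88 with 2 regional components. Enriched replicate 1 did not share the difference. The list stood at -0.04, 0.79 and 0.81 in enriched, 0.15, 0.09 and -0.24 in control and 0.33, 1.42 and 0.29 in stress libraries, relative to the control mean. Abcb1a, the drug efflux pump of the blood-brain barrier, was at 13.5, 27.1 and 26.3 against 9.59, 9.06 and 11.4 CPM, and Pecam1, an adhesion molecule, at 5.27, 14.4 and 14.6 against 4.95, 6.58 and 4.78 CPM. Abcb1a did not overlap and Pecam1 did. Their log2 fold changes were 1.15 ± 0.41 and 1.07 ± 0.42 (SE). Pericyte and smooth muscle genes stood at -0.12, 0.07 and 0.27 in enriched and 0.24, 0.38 and -0.63 in control libraries, with a median of 0.18. Rgs5, one of them, was at 28.9, 66.9 and 76.3 against 20.9, 27.96 and 30.1 CPM. Haemoglobin genes, a measure of blood in the tissue, lay differently, with Hbb-bs at 161, 58.7 and 129.9 against 94.1, 100.1 and 214 CPM.

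Regional genes differed widely between animals of a group. The 19 brain stem and Hox genes tested were all lower, with a median of -1.84. Relative to the control mean they stood at -0.66, -1.02 and -2.47 in enriched, 0.89, 1.12 and -2.01 in control and -0.07, 0.03 and -2.24 in stress libraries. Hoxa5, a homeobox gene of the caudal brain stem and spinal cord, was at 0.539, 1.37 and 0 against 3.32, 6.64 and 0.545 CPM. Control replicate 3 was low, with enriched replicate 3 lower still. The median became -0.32 with 1 regional component and 1.09 against control replicate 3 alone, which reversed its sign. Hox genes rest on few reads, since 1 CPM corresponds to between 15.9 and 16.8 reads.

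Genes of the forebrain's olfactory pathway lay the other way. The olfactory bulb list was higher for 12 of 13 tested members, with a median of 0.73 that was 0.097 with 2 regional components. Sp8, a factor of bulb interneurons, was at 53.2, 26.2 and 44.1 against 11.9, 3.44 and 21.5 CPM, and Trh, a neuropeptide of bulb and hypothalamus, at 51.2, 16.9 and 38.2 against 14.96, 2.84 and 16.8 CPM. Control replicate 2 was by far the lowest for both. Genes of neural progenitors and neuroblasts, the cells that supply new bulb interneurons, were higher for 18 of 20, with a median of 0.47 and of 0.14 with 2 regional components. Dlx1, a factor of migrating interneuron precursors, was at 101, 62.8 and 82.2 against 25.8, 6.58 and 59.2 CPM. Its order over the controls followed that of the bulb genes. Top2a, a gene of dividing cells, was near 1 CPM, at 0.958, 1.25 and 1.25 against 0.663, 0.664 and 0.545 CPM, and Nes (nestin), of progenitors and vessels, was at 8.03, 11.5 and 9.78 against 4.82, 6.76 and 5.57 CPM. Omp, the marker of olfactory sensory neurons, was at 67.3, 0.476 and 50.3 against 0.362, 0.362 and 0.424 CPM. Enriched replicates 1 and 3 were high for it and enriched replicate 2 lay with the controls. Stress libraries were at 0.911, 4.06 and 1.16 CPM.

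Choroid plexus genes were lower for all 14 tested members, with a median of -1.45. They stood at -3.44, -0.40 and -3.78 in enriched and -0.22, -0.10 and 0.33 in control libraries relative to the control mean. The stress libraries stood at -1.96, -0.63 and -1.24 on the same scale, each also below every control. Folr1, a folate receptor of this epithelium, had 4, 130 and 0 reads in enriched and 241, 206 and 190 reads in control libraries. With enriched replicate 2 as the only enriched library the median was -0.30. Ependymal and cilia genes were lower for 18 of 22, with a median of -0.46, and -0.21 with enriched replicate 2 alone. Rsph1, of the radial spokes of cilia, was at 2.46, 2.62 and 2.63 against 4.95, 5.56 and 3.51 CPM, with little spread among the enriched libraries. Cerebellar genes, which the dissection as described leaves unmentioned, were abundant in both groups. Of 15 tested members 5 were higher and 10 lower, with a median of -0.047 and of -0.26 with the length trend removed. The list stood at -0.25, 0.05 and -0.03 in enriched and -0.24, 0.04 and 0.19 in control libraries, so the groups overlapped. Pcp2, of Purkinje cells, lay apart from this, at 369.7, 362 and 365 against 653, 599 and 503 CPM.

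**Figure D5:**
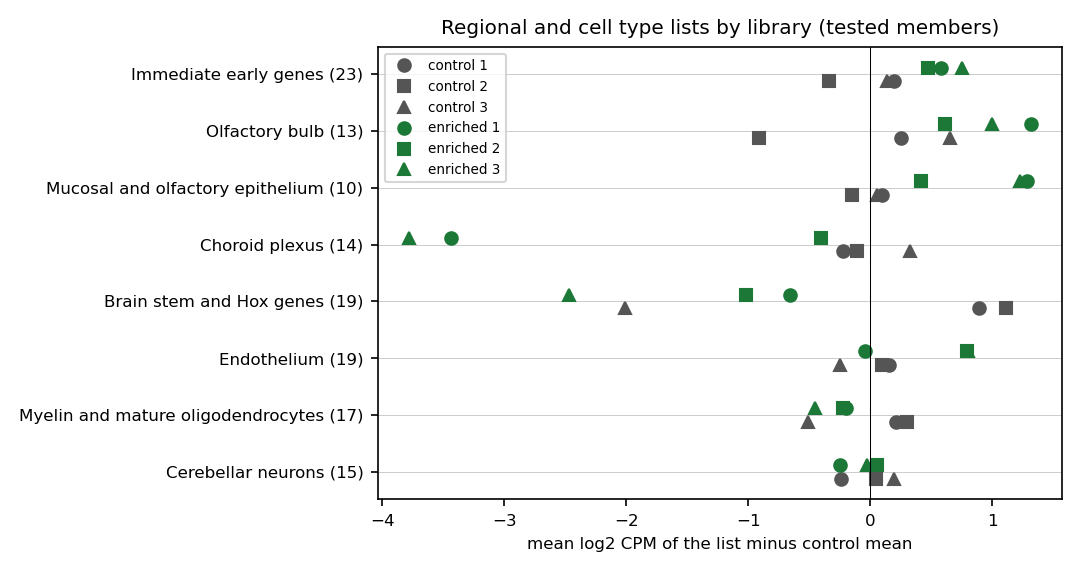
Mean log2 CPM of 8 gene lists relative to the control mean (horizontal axis; tested members in brackets) for each of the 3 enriched (green) and 3 control (grey) libraries, with marker shape giving the replicate. Choroid plexus genes lie at -3.44 and -3.78 in enriched replicates 1 and 3, brain stem genes separate control replicates 1 and 2 from replicate 3, and for the immediate early genes the enriched libraries, at 0.48 to 0.75, lie above all 3 controls.

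Against the stress mice, which share the enriched libraries with the comparison above, no gene passed (0 of 14694 in the edgeR quasi-likelihood test, Benjamini-Hochberg adjusted, smallest adjusted p = 0.999, and 0 by DESeq2), with 388 genes at an unadjusted p under 0.05 (2.64%). Over the immediate early genes the median log2 difference was 0.51 from stress and 0.56 from control, and single members varied. Fosb had a log2 difference of 1.0 ± 0.26 (SE) from stress and 1.28 ± 0.26 from control, and Fosl2 of 1.03 ± 0.28 and 1.29 ± 0.28. Stress libraries were at 14.8, 12.3 and 11.7 CPM for Fosl2, below every enriched library. Stress libraries held Egr1 at 83.01, 174 and 133 CPM, and stress replicate 2 came close to the enriched values. For Egr2, stress replicate 2 was level with enriched replicate 2. For Pcolce, Grin2b and Igfbp2 the stress libraries lay nearer the enriched than the control libraries, with log2 differences from stress of -0.20 ± 0.15, 0.28 ± 0.21 and 0.11 ± 0.17 (SE). A p that misses the threshold does not show that enriched and stress mice were alike.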

How the data were processed

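Messenger RNA of 9 APP/PS1 mouse brains was selected with oligo(dT) beads and sequenced, per the labels' protocols. The authors deposited 1 table of estimated counts and TPM per transcript. Its 9 FPKM columns, scaled by the authors per transcript length and library per the file headers, were not used. The submitters' processing notes list RSEM 1.2.12, Bowtie2 2.2.5, HISAT2 2.0.4 and GRCm38.p6, without their roles. The table ends after 65535 transcripts, which with its header is 65536 lines, and 67.0% of tested genes held every annotated coding transcript, so a gene's sum can miss transcripts. Reads were assigned by estimation, and 56.5% of deposited estimated counts were not whole. Use of strand in counting is not stated.

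Estimated counts were summed over 18450 genes, rounded and scaled by TMM in edgeR 4.0.16 (R 4.3.3), and symbols were matched by gene identifier for 18398. Genes passing edgeR's filter (minimum count 10, minimum total 15) were fitted over all 9 libraries by robust quasi-likelihood with 6 residual degrees of freedom and Benjamini-Hochberg adjustment at 0.05. Libraries held 15851833 to 17213008 counts, so 1 CPM is about 16 reads. CPM values are TMM-scaled, and log2 CPM values use a prior count of 2. Fold changes come from the fitted model, to which that prior count was not applied. The length trend is a spline (4 degrees of freedom) of each library's log2 CPM on the longest coding transcript, known for 14426 genes, removed as an offset. Regional components are the first principal components of 129 regional marker genes, holding 56.6% and 16.9% of their variance.

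Alternatives were DESeq2 1.42.0, limma 3.58.1 (voom, and log2 of deposited TPM plus 1), other scaling and filters, 6 libraries, and each library left out. The fit was tested on simulated data. Named genes are the 12 higher and 12 lower of smallest p with at least 1 CPM and no overlap, up to 4 of smallest p in each of 60 lists, up to 2 in the 6 highest and 6 lowest symbol families, and some defining members added after their values were seen; some of these genes are not reported here. The groups, lists and members were chosen with earlier results of these data known.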

Additional observations from a re-analysis of the deposited data

How the results depend on the processing

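The count of genes past the adjusted threshold between enriched and control mice was 0 by edgeR and by limma (voom or TPM), and 5 by DESeq2, either after the filter or on all genes with a read (chosen after seeing the data). It ranged from 0 to 1586 with 1 library left out, and was 33 without enriched replicate 2. Against stress it was 0, 1 when the first letter of the animal code was a covariate, and 0 to 2 with 1 library left out. The 2994 genes at an unadjusted p under 0.05 became 1976 with the length trend removed, 1601 with the first regional component as well, 315 with 2 regional components, and 1005 with the letter. With only enriched replicate 2 or only control replicate 3 in its group, settings chosen after seeing the data that take the lone library to vary like the others, they were 458 and 229. Leaving out 1 library gave 1016 (without enriched replicate 3) to 5384 (without control replicate 3), with 1024, 1554 and 1647 without control replicates 1 and 2 and enriched replicate 2. Of 60 list medians, 14 changed sign with the length trend removed and the first regional component as covariate. With only the length trend removed 12 did so, and 12 against control replicate 3 alone. The number was 10 with limma on log2 TPM, 8 with 2 regional components and 7 with the letter. It was 8 with enriched replicate 2 alone and 0 to 8 with 1 library left out. Under DESeq2, voom, other scaling or no filter it was 0. The causes were not tested. No paired analysis was possible because the labels carry no replicate numbers that groups share. With 3 libraries a group and reads of low genes in single digits, differences in Hox, T cell and epithelial genes were weakly resolved.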

Other observations

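Genes of cortical excitatory neurons were higher for 16 of 19 tested members, with a median log2 fold change of 0.32 and of 0.27 with the length trend removed. Cux2, a factor of upper cortical layers, was at 87.6, 81.04 and 83.1 CPM in the enriched and 65.7, 62.4 and 74.6 CPM in the control libraries, and Tle4, of a deep layer, at 31.6, 38.1 and 31.7 against 16.9, 24.6 and 29.2 CPM. Neither overlapped between the groups. Genes of inhibitory neurons lay in both directions. Gad1, which makes GABA, was at 1089.5, 748 and 945 against 584, 548 and 798 CPM, with enriched replicate 2 under control replicate 3, whereas Pvalb, of fast-spiking and Purkinje cells, was at 469, 436 and 394 against 882, 732 and 563 CPM and below every control. Genes of striatal projection neurons had a median of -0.29 that turned to 0.14 with 2 regional components and 0.12 against control replicate 3 alone. Within that list Ppp1r1b (DARPP-32), which relays dopamine signals, was at 173, 200.1 and 153 against 276, 307 and 239.8 CPM. The AMPA and kainate receptor genes were higher for 9 of 11, with a median of 0.26 and of 0.066 with the length trend removed, and Grik3 was at 127, 127 and 125 against 85.6, 87.98 and 105 CPM, without overlap and with a log2 fold change of 0.44 ± 0.11 (SE).

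Collagen genes were higher for 19 of 28 tested members, with a median of 0.30 that was 0.053 with the length trend removed. Col12a1 was at 12.8, 12.2 and 14.6 against 8.87, 7.06 and 9.92 CPM and Col9a3, a cartilage collagen that choroid plexus also makes, at 26.1, 37.3 and 24.2 against 46.1, 51.7 and 49.4 CPM, so members lay on both sides of the controls without overlap. Clock genes were higher for 13 of 18, among them Per2 at 27.3, 26.1 and 29.98 against 16.4, 18.4 and 23.96 CPM. For the glucocorticoid receptor and its targets 11 of 18 were higher, and Tsc22d3 (GILZ), which the hormone induces, was at 109, 87.9 and 97.8 against 137, 114 and 109 CPM, with enriched replicate 1 level with control replicate 3. In cholesterol synthesis Mvd and Pmvk, consecutive enzymes in the mevalonate branch, were at 20.7, 16.1 and 17.2 against 30.6, 26.2 and 19.8 CPM and at 38.9, 36.9 and 33.7 against 63.7, 47.8 and 39.8 CPM. Mvd overlapped with control replicate 3 and Pmvk did not overlap. None of these genes passed edgeR's quasi-likelihood test.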
